A study of Rattus norvegicus with 24 samples.

Results

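The question addressed here is whether ageing from 6 to 30 months changes transcript levels differently in 2 muscles of the rat, the extensor digitorum longus (EDL), a fast toe extensor of the hindlimb, and the extraocular muscles (EOM), which turn the eyeball. The 16 arrays used, of 24 in the series, are those of EDL and EOM at 6 and at 30 months, 4 arrays in each of the 4 groups, chosen from their titles. Each array measured RNA combined from 4 animals, and the design text calls the 4 replicates of a group independent. The p-values reflect how much such pools vary. Strain, sex and any treatment, and whether EDL and EOM pools came from the same animals, are not given in the sources used here. The 8 arrays at 18 months enter no test and are given only as levels.

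The central quantity is the interaction, the log2 change in EOM minus the log2 change in EDL. It is negative where a transcript rose less, or fell more, in EOM than in EDL. A probe set, the group of short probes by which the array reports a transcript, was called at a limma p-value under 0.05 after Benjamini-Hochberg adjustment over all 5606 probe sets in the test.

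As background, a skeletal muscle fibre keeps its acetylcholine receptors packed under the nerve terminal. Electrical activity set by the nerve holds the receptor genes silent in the nuclei elsewhere along the fibre. When a fibre loses its nerve, myogenin and related factors rise and the receptor subunit genes are transcribed along its length, together with Gadd45a, Ncam1, Runx1 and other genes of the denervation response. Limb muscles lose nerve contacts with advanced age. Extraocular muscles differ from limb muscles in their innervation, keep developmental myosins in the adult, and are known for their relative sparing in several neuromuscular diseases.

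The labelled tissues matched their defining genes. Myh13, the extraocular myosin heavy chain, read 10667 to 19960 units on the 8 EOM arrays and 19.9 to 175.3 units on the 8 EDL arrays. Median signal lay between 94.1 and 136.8 arbitrary units per array, and precision is limited by the number of arrays. The EDL arrays were the noisier, with a median within-group SD of 0.447 on the log2 scale against 0.349 in EOM. Beta-actin probes near the 3' end of the transcript outshone those near the 5' end, a sign of RNA degradation, by factors of 2.54 and 3.54 on arrays 1 and 2 of EDL at 6 months and of 1.16 to 1.85 on the 14 others. In every group, arrays 1 and 2 stood apart from arrays 3 and 4 on the first principal component of the deviations from the group means, which held 27.5% of their variance. The labels name no batch that separates these sets, so values within each set are printed beside the main results.

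Ageing changed more transcripts in EDL than in EOM, and the transcripts whose change differed between the muscles were ones that rose in EDL. In EDL 93 of 5606 probe sets were called (1.66%), 76 higher (1.36%) and 17 lower (0.303%) at 30 months. In EOM 2 were called (0.0357%), both higher. For the interaction 9 were called (0.161%), 0 positive and 9 negative, with 73 positive and 165 negative at an unadjusted p under 0.05 in the same limma fit. The 9 probe sets represent Chrna1, Gadd45a (2 probe sets), Ankrd1, Igf2, Ctsl, Klk1 and a pair with no gene symbol. On all 9, every EDL array at 30 months lay above every EDL array at 6 months, as on 2.91% of all probe sets tested (the reverse held on 1.16%). In EOM the corresponding shares over all probe sets were 1.37% above and 1.05% below. The interaction and the EDL change use the same EDL arrays, so the second is not separate support for the first. Within arrays 1 and 2 alone 6 interactions were called, and within arrays 3 and 4 alone 0 were called, with 2 arrays a group.

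**Figure D1:**
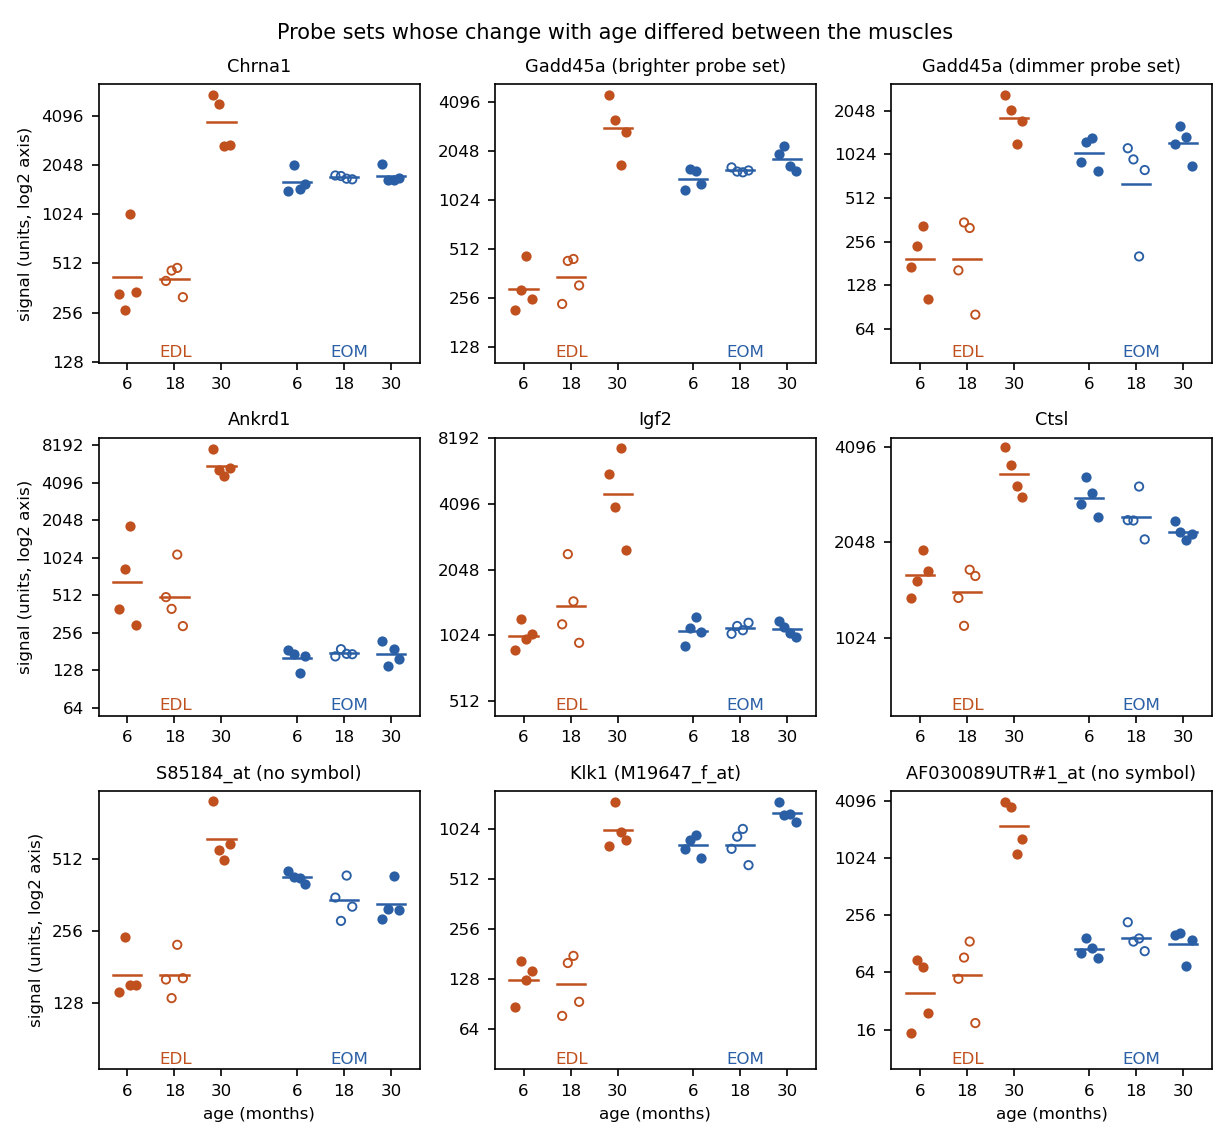
Signal on each array (arbitrary units, log2 axis) of the 9 probe sets called for the interaction, by age in months, for EDL (orange) and EOM (blue); filled points entered the test, open points are the 18-month arrays, and bars are means of the log2 values over 4 arrays. In each panel the EDL points at 30 months lie above all EDL points at 6 and 18 months.

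The muscle acetylcholine receptor is a ring of alpha, beta, delta and, in the adult, epsilon subunits, with gamma in place of epsilon before birth and after denervation. Chrna1, the alpha subunit (Entrez gene 79557), read 331.5, 265.2, 1032.8 and 344.7 units on EDL arrays 1 to 4 at 6 months and 5467.8, 4866.5, 2690.9 and 2702.7 at 30 months. In EOM it read 1426.0, 2040.1, 1452.8 and 1569.1 units at 6 months and 2065.5, 1656.8, 1664.5 and 1699.0 at 30 months. The EDL groups were far apart, the EOM groups overlapped, and EDL passed from below EOM at 6 months to above it at 30. The EDL rise was 8.87-fold (log2 3.15, SE 0.34) against a log2 change of 0.14 in EOM (95% interval -0.57 to 0.84). The interaction was -3.01 (SE 0.47, adjusted p = 0.00482, limma), with values of -4.00 within arrays 1 and 2 and -2.02 within arrays 3 and 4. Array 3 of EDL at 6 months was the high one, and without it the interaction was -3.44.

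Of the other subunits, Chrnd (delta) and Chrnb1 (beta) were called higher in EDL, while their interactions did not pass the threshold. Chrnd rose 4.6-fold in EDL (log2 2.20, adjusted p = 0.00361, limma), from between 126.9 and 564.1 units to between 601.0 and 1589.8. Its EOM arrays also separated, from 657.5 to 994.3 units at 6 months and from 1072.7 to 1301.1 at 30 months, a log2 change of 0.45 that was not called. Its interaction of -1.76 was not called (adjusted p = 0.517), and was -2.17 with adjusted p = 0.0377 without array 3 of EDL at 6 months. Chrnb1 went from 487.1 to 644.7 units to 1018.5 to 1368.9 in EDL (log2 1.06, adjusted p = 0.000905) and from 986.1 to 1289.7 units to 920.3 to 1142.6 in EOM (log2 -0.03). Its interaction was -1.09 (SE 0.22, adjusted p = 0.0564). Chrne (epsilon) and Chrng (gamma) had EDL changes of 0.72 and 0.79 and interactions of -0.74 and -0.67, none of them called. The 5 subunits therefore all had EDL changes above 0, and 3 of them were called.

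Promoter sequences of the subunits that rose in EDL, of Chrne, which was not called, and of Myog, which encodes myogenin, are shown because factors of the myogenin family bind E-boxes in the receptor subunit genes. Each run covers 250 bases before to 50 bases after the RefSeq gene start in build GRCr8, 5′ to 3′ on the gene's strand, and capitals mark every CANNTG (the E-box, where N is any base, searched on both strands; CAGCTG is a subset of it).
Chrna1, chr3:78877304-78877603, minus strand: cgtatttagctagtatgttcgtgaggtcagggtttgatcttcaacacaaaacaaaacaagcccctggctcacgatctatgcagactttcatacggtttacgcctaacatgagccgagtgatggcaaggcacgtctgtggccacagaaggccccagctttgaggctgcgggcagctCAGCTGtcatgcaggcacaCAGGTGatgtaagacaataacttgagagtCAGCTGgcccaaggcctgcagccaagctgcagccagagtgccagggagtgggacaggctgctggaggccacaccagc
Chrnb1, chr10:55015058-55015357, minus strand: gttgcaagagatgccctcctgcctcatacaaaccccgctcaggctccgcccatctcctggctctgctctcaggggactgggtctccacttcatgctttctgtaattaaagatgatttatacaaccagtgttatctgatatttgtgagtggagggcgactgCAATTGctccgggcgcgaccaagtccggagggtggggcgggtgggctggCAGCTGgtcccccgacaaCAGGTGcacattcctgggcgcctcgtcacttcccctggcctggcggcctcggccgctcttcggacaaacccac
Chrnd, chr9:95310066-95310365, plus strand: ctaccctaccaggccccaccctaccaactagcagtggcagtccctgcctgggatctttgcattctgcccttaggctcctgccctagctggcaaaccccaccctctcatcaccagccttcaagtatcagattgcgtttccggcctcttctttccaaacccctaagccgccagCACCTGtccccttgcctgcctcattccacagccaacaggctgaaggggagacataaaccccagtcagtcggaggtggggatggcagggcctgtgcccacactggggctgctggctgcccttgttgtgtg
Chrne, chr10:55834105-55834404, minus strand: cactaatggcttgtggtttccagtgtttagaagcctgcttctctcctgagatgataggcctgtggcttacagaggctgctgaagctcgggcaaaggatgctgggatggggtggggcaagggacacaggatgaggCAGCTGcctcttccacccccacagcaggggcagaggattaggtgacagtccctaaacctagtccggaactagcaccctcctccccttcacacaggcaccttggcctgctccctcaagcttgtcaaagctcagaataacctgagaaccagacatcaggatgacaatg
Myog, chr13:48297226-48297525, plus strand: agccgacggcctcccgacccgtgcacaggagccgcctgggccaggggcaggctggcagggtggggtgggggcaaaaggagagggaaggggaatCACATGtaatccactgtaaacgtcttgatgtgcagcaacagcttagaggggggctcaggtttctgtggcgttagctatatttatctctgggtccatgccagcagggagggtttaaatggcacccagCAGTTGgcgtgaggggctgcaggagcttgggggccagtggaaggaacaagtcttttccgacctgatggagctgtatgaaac
CANNTG matched 3 times in the Chrna1 window, of which 2 were CAGCTG, starting 75 and 27 bases before the gene start. It matched 3 times for Chrnb1 (1 CAGCTG), 1 time for Chrnd (0 CAGCTG), 1 time for Chrne (1 CAGCTG) and 2 times for Myog (0 CAGCTG). Chrng, not printed, held 4 matches, 2 of them CAGCTG. Over the 33469 rat promoters of 300 bases in the same table, 72.1% held a CANNTG and 15.1% a CAGCTG, so a CANNTG match is the common case and the matches are only a description.

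Most of the denervation genes measured rose in EDL. Of the 17 genes on the denervation response list 8 were tested, and 6 were called higher in EDL, against 44 higher of 3354 genes over the whole array. Their median change was 2.83 in EDL and 0.08 in EOM, and the median interaction was -2.74, against -0.01 over all genes tested. All 8 interactions were negative and 2 were called, those of Gadd45a and Ankrd1. This list, like the others used here, was drawn up with earlier results of these data known. Counts over a list are therefore not separate support. The median interaction was -3.40 within arrays 1 and 2 and -1.71 within arrays 3 and 4. Without arrays 1 and 2 of EDL at 6 months, those with the high beta-actin ratios, it was -1.89. The interaction then went from -3.01 to -2.51 for Chrna1, from -3.05 to -2.16 for Ncam1 and from -2.60 to -1.62 for Cdkn1a.

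Gadd45a, a stress and denervation gene (Entrez gene 25112), read 215.5, 288.7, 467.8 and 253.6 units in EDL at 6 months and 4510.8, 3165.4, 1671.5 and 2700.1 at 30 months on its brighter probe set. EOM went from 1180.9, 1580.1, 1555.9 and 1279.1 units to 1977.4, 2216.5, 1655.7 and 1540.3. EDL at 6 months was thus below every EOM array, and at 30 months all 4 EDL arrays were above the highest EOM array at 6 months. The EDL rise was 9.67-fold and the interaction -2.88 (SE 0.38, adjusted p = 0.0015, limma; -3.31 and -2.45 within the sets). Its dimmer probe set L32591mRNA_at gave -3.03 (adjusted p = 0.00348). A further probe set, rc_AI070295_g_at, rose in EDL (log2 2.53) with an interaction of -1.89 that was not called. The fourth, rc_AI070295_at, gave changes of 2.10 in EDL and 1.60 in EOM, neither called, and an interaction of -0.50.

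Myog, the myogenic factor named above (Entrez gene 29148), had an interaction as large as that of Chrna1 with far more spread. Its EDL arrays read 71.7, 566.7, 953.6 and 94.3 units at 6 months and 2682.2, 3123.4, 1766.1 and 1820.5 at 30 months. In EOM it stayed between 306.0 and 431.8 units at 6 months and between 270.7 and 424.9 at 30. The 6-month EDL arrays alone spanned a wider range than all 8 EOM arrays. The EDL change was 3.21 (adjusted p = 0.00543) and the interaction -3.14 (SE 0.82, adjusted p = 0.274), which became -3.80 with adjusted p = 0.0126 without array 3 of EDL at 6 months.

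Ncam1, a cell adhesion molecule that spreads over denervated fibres, Runx1, a transcription factor induced by loss of activity, and Cdkn1a, a cell cycle inhibitor, were also called higher in EDL. Ncam1 was at 46.7, 51.9, 59.8 and 476.5 units in EDL at 6 months, the last on array 3, and between 640.0 and 842.6 at 30 months (log2 2.97, interaction -3.05, adjusted p = 0.274). Its other probe set, X06564_at, did not show this, with an EDL change of -0.15 and an EOM change of -0.62, neither called. Runx1 rose from between 251.8 and 825.4 units to between 999.1 and 1941.6 in EDL (log2 1.98), with an interaction of -1.65 (adjusted p = 0.446). Array 3 was the highest EDL array at 6 months for 6 of the 8 denervation genes, and array 3 at 18 months for 7 of the 8. At 6 months this array also had the highest median signal of its group, 135.65 units against 94.1 to 116.25 on the others. No share over all probe sets is given, so these counts may not be particular to the denervation genes. Cdkn1a rose in EDL by a log2 change of 2.68, and its interaction of -2.60 had an adjusted p of 0.742 in limma. Its dimmer probe set, L41275cds_s_at, gave an interaction of -3.19, also not called (adjusted p = 0.108, limma). That probe set read 24.6, 27.8, 130.8 and 30.8 units in EDL at 6 months, mostly near the floor. Myod1 (EDL 1.03, EOM -0.03) and Trim63, a muscle ubiquitin ligase (EDL 0.60, EOM 0.04), were not called for the change in either muscle or for the interaction.

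**Figure D2:**
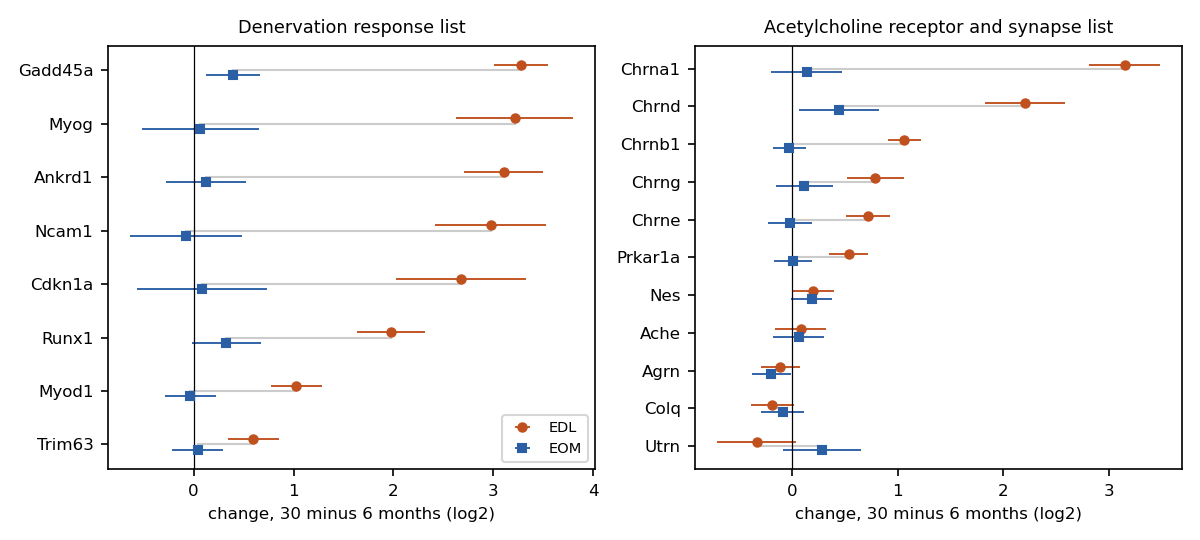
Log2 change from 6 to 30 months in EDL (orange circles) and EOM (blue squares), with the SE from the limma fit over 16 arrays, for the tested genes of the denervation response list (left) and the acetylcholine receptor and synapse list (right). Chrna1, Chrnd and 6 of the 8 denervation genes lie near or above 2 in EDL, while every EOM value in both panels lies between -0.2 and 0.45.

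Outside the receptor itself, transcripts of the synapse showed little change. Of the 16 genes on the acetylcholine receptor and synapse list 11 were tested, 3 were called higher in EDL (the subunits above) and 1 for the interaction (Chrna1), against 44 and 5 of all 3354 genes tested. Ache, the esterase that clears acetylcholine, changed by 0.08 in EDL and 0.06 in EOM. Agrn, the nerve-derived organiser of the synapse, changed by -0.11 and -0.20, and Colq, which anchors the esterase, by -0.19 and -0.09. None of these 3 was called.

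Ankrd1, a stretch-responsive protein of the sarcomere and nucleus (Entrez gene 27064), was the transcript among the 9 that was lower in EOM than in EDL already at 6 months. EDL read 397.9, 823.5, 1853.4 and 296.1 units at 6 months and 7628.4, 5174.7, 4640.2 and 5349.2 at 30 months. EOM stayed between 121.9 and 186.4 units at 6 months and between 137.8 and 219.5 at 30. All 4 EDL arrays at 30 months were above the highest at 6, an 8.59-fold rise, and at 30 months EDL stood 32.2-fold above EOM. The interaction was -2.98 (SE 0.56, adjusted p = 0.0343), and it was called in 16 of 33 alternative settings, with values from -3.50 to -2.46 over them.

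Igf2, a fetal growth factor (Entrez gene 24483), started at like levels in both muscles. EDL read 878.7, 1214.8, 989.7 and 1035.3 units at 6 months and 5642.6, 3972.4, 7405.8 and 2534.4 at 30 months. EOM read 915.3 to 1241.1 units at 6 months and 1010.6 to 1197.7 at 30. The EDL rise was 4.43-fold, the EOM change 0.02 and the interaction -2.12 (SE 0.34, adjusted p = 0.00589; -1.99 and -2.26 within the sets). The probe sets of this gene disagreed, since the dimmer M17960_at and M17960_g_at changed by 0.06 and -0.16 in EDL, with interactions of -0.38 and -0.07. H19, a noncoding RNA from the neighbouring imprinted gene, had an EDL change of 0.60 and an interaction of -0.50, neither called, on its brightest probe set.

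Ctsl, the lysosomal protease cathepsin L (Entrez gene 25697), had changes of opposite sign. EDL read 1367.2, 1546.7, 1943.1 and 1663.6 units at 6 months and 4101.9, 3583.8, 3074.3 and 2856.2 at 30 months. EOM read 2706.9, 3288.6, 2938.0 and 2467.6 units at 6 months and 2399.6, 2212.7, 2085.3 and 2183.0 at 30. The 2 groups of EOM did not overlap either, with the older arrays lower. The EDL change of 1.06 was called and the EOM change of -0.35 was not (adjusted p = 1.00, unadjusted p = 0.0357), and the interaction was -1.41 (SE 0.22, adjusted p = 0.00482; -1.77 and -1.06 within the sets). Probe set S85184_g_at of the same gene gave -0.70, not called. Probe set S85184_at, which has no gene symbol and was singled out after its values were seen, gave -2.26 (adjusted p = 0.00209), rising from 141.5 to 240.1 units to 507.4 to 894.3 in EDL.

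Klk1, tissue kallikrein (Entrez gene 24523), was represented by a pair of probe sets. On the brighter, M19647_i_at, EDL read 73.0, 407.2, 144.9 and 24.4 units at 6 months and 2710.4, 6754.7, 2350.8 and 2219.9 at 30 months, while EOM read 1870.2 to 3029.0 and 3331.0 to 6242.3. Neither muscle's groups overlapped, with a rise of 4.92 in EDL and a change of 0.99 in EOM that was not called. The interaction of -3.93 missed the threshold (adjusted p = 0.0564), and the mean change of both muscles, 2.96, was called (adjusted p = 0.000762). The dimmer M19647_f_at, added after its values were seen, gave an interaction of -2.35 (SE 0.32, adjusted p = 0.0015; -2.48 and -2.23 within the sets). An f in a probe set name of this array marks probes shared by a gene family, so kallikrein paralogs may add to its signal. Klk1c3, such a paralog and itself read by an f probe set, had a mean change of 1.06 (adjusted p = 0.00316, limma).

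Klk1 is also a gland product, and it stood on the list of orbital gland, epithelium and retina markers, genes of tissues that lie beside the eye muscles. Of 20 listed genes 11 were tested, and 0 were called for the interaction, against 5 of 3354, a share at which 0 of 11 says little. Of the 11 interactions 10 were negative, with a median of -0.98, against 1696 of 3354 and a median of -0.01 over all genes tested. In EDL 3 were called higher, against 44 of 3354, namely Klk1 and the epithelial keratins Krt18 (2.61) and Krt8 (2.14). Krt18 read 3.4, 4.9, 35 and 2.8 units in EDL at 6 months, at or below the floor. It passed the signal filter only through the EDL arrays at 30 months, where it was high, so the size of its rise is uncertain. Spt1, a secreted salivary protein, read 603.0, 823.2, 16578.7 and 5774.6 units in EOM at 6 months and 160.1 to 272.7 at 30 months, and stayed at 11.9 to 43.2 units in EDL, at or near the floor of 21.5 to 34.5 units. Its EOM change of -3.55 and interaction of -3.72 were not called (adjusted p = 0.2 and 0.313), and the 6-month EOM arrays differed among themselves by a wide margin. The part of gland tissue in the EOM values was not tested. In bulk RNA, fewer cells of a type and less RNA per cell cannot be told apart.

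The probe set AF030089UTR#1_at, which has no gene symbol, showed the largest interaction of all probe sets tested. It read 14.6, 85.6, 72.6 and 23.8 units in EDL at 6 months, 2 of them below the floor, and 3913.0, 3509.4, 1119.8 and 1631.3 at 30 months. EOM read 90.2 to 145.7 units at 6 months and 74.4 to 165.7 at 30. The EDL change was 5.69 (SE 0.46), which the floor makes an underestimate, and the interaction -5.49 (SE 0.66, adjusted p = 0.000859; -6.03 and -4.96 within the sets).

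On the 9 probe sets called for the interaction, the order of the muscles mostly differed between 6 and 30 months. EOM stood above EDL at 6 months on 8 of the 9 probe sets, by 4.74-fold for Gadd45a, 3.82-fold for Chrna1, 1.75-fold for Ctsl and 1.05-fold for Igf2. At 30 months EOM was the lower on 8 of the 9, EDL being above it by 1.55-fold, 2.11-fold, 1.52-fold and 4.14-fold for the same genes. The exceptions were Ankrd1 at 6 months and Klk1 (M19647_f_at) at 30. The 9 were called for a negative interaction, which favours EOM above EDL at 6 months and below it at 30. These counts are therefore not separate support, and no share over all probe sets is given. The EDL levels at 18 months overlapped those at 6 months on each of the 9. All EDL arrays at 18 months lay below all EDL arrays at 30 months on 9 of the 9 probe sets, and above all 6-month arrays on 0. Chrna1, for example, read 318.5 to 480.8 units in EDL at 18 months. Chrnb1, not among the 9, differed in this, with 768.5 to 1027.5 units in EDL at 18 months, above each 6-month array. The same held on 1.28% of all probe sets tested, a share at which 0 of 9 says little. The 9 were chosen through their EDL arrays at 30 months, which favours 18-month arrays below these. The share of all probe sets with that order is not given.

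Across all 5606 probe sets the measured changes of the muscles agreed weakly. As a description over probe sets, which are not independent replicates, Pearson's r between the EDL and the EOM change was 0.263 and Spearman's rho 0.19, with a jackknife SE over the 16 arrays of 0.133 for rho. The direction was the same on 56.7% of probe sets. Over the 1869 probe sets with the highest mean signal rho was 0.235, and over the 1869 with the lowest it was 0.145. The spread of the changes was wider in EDL (SD 0.492 on the log2 scale) than in EOM (0.308), and the EDL arrays were also the noisier. The median SE of a change was 0.304 in each muscle, close to the EOM spread. Error of that size lowers r and rho, so weak agreement of the measured changes need not mean that the responses disagreed.

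The EOM changes of the transcripts called in EDL were as follows. Of the 76 probe sets called higher in EDL, EOM was higher on 60, with a median EOM change of 0.17 against 1.61 in EDL. Of the 17 called lower in EDL, EOM was lower on all 17, with a median of -0.86 against -1.49, and on 10 of them the EOM fall had an unadjusted p under 0.05 in limma. The 17 represent only 10 named genes, and 6 of the 17 are probe sets of Col1a1, Col1a2, Col3a1 and Col5a2, so some genes count more than once. The 76 represent 54 named genes. Over all probe sets tested the median EOM change was 0.01, and 52.2% were higher. On all 93 the EOM change was the smaller in size, as on 3508 of the 5606 probe sets tested. The 93 were chosen for their EDL change, which favours a smaller EOM change, so this count does not measure a weaker response in EOM. Among 34 probe sets with an EDL rise of at least 2 the median EOM change was 0.43, and 94.1% were higher, and among 179 with a rise between 1 and 2 it was 0.21, with 73.2% higher. Among 57 with an EDL fall of at least 1, called or not, the median EOM change was -0.17 and 39 were lower. Whether transcripts that rose and transcripts that fell in EDL differ in this agreement was not tested.

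**Figure D3:**
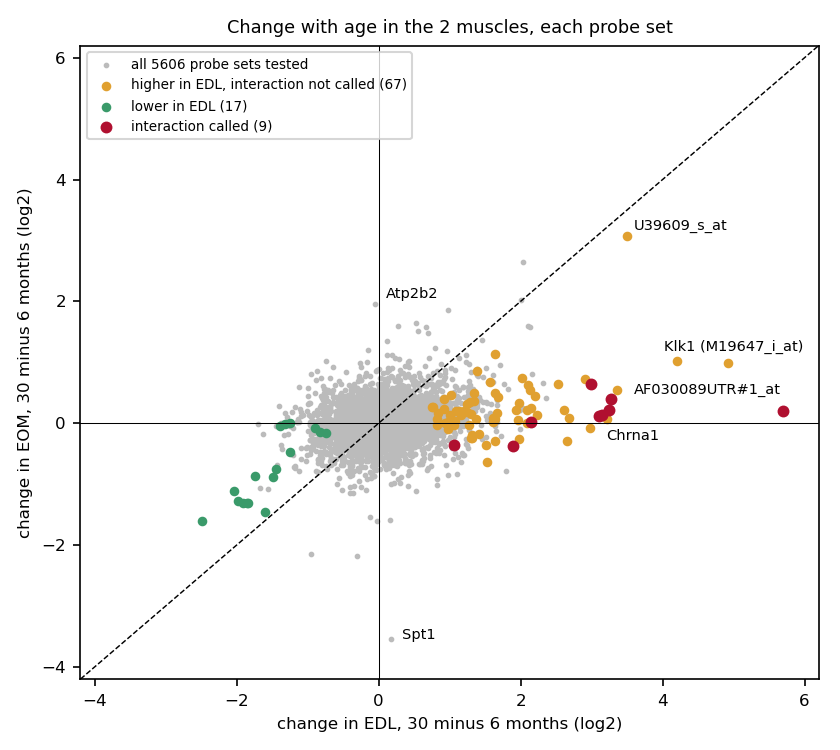
Log2 change from 6 to 30 months in EDL (x axis) and in EOM (y axis) for each of 5606 probe sets, with those called higher in EDL (67 with no call for the interaction), lower in EDL (17) and for the interaction (9) in colour; the dashed line marks equal change. The 9 lie to the right of 0 on the x axis, below the dashed line and between -0.37 and 0.64 on the y axis, and the 17 lie to the lower left with EOM below 0.

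Collagen transcripts led the falls in the mean change of both muscles. The mean change of both muscles was called on 50 probe sets (0.892%), 38 higher and 12 lower, and 40 of these had the same sign in both muscles and no call for the interaction. The largest named falls among them were Col1a2 (-1.58), Col3a1 (-1.58), Col1a1 (-1.53) and Col5a2 (-1.32), all chains of the fibrillar collagens made by fibroblasts. Tfrc, the transferrin receptor, followed at -1.30. All 8 probe sets of the 4 collagen genes, several of them of Col1a1, were called for the mean change and were lower in both muscles. In EDL 6 of the 8 were called lower, against 0.303% of all probe sets tested. The genes were chosen for their falls in this same mean change, so these counts are not separate support.

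Col1a2 (Entrez gene 84352) read 3970.8, 5753.9, 4513.6 and 7388.1 units in EDL at 6 months and 1155.5, 766.4, 1812.0 and 1703.7 at 30 months. In EOM it read 1999.4, 4509.4, 2453.4 and 3706.8 units at 6 months and 1770.7, 1628.0, 884.1 and 1440.9 at 30. Neither muscle's groups overlapped, and the fall was 4.09-fold in EDL (log2 -2.03, adjusted p = 0.00123) and 2.17-fold in EOM (log2 -1.12, adjusted p = 0.802). Its interaction of 0.91 was not called (95% interval -0.01 to 1.83). Col3a1 fell by 1.85 in EDL, and its EOM change was -1.30, not called. Col1a1 fell by 1.60 in EDL and had an EOM change of -1.47, with an interaction of 0.14 (95% interval -1.005 to 1.28) that turned negative under 7 of 33 alternative settings.

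At 18 months the EDL arrays already lay below all 6-month EDL arrays on all 8 collagen probe sets, as on 1.25% of all probe sets tested. These genes were chosen for a fall from the same 6-month arrays, which favours that order. The EOM arrays did so on 0 of the 8, against 2.12% of all, a share at which 0 of 8 says little. Col1a2, for example, read 633.8 to 1229.0 units in EDL at 18 months, and 1994.2 to 2726.5 in EOM, between the EOM levels at 6 and 30 months in the mean. Whether the muscles differ in this course was not tested. Of the 32 extracellular matrix genes tested, 21 were lower in both muscles, as were 25.7% of all genes tested. The list's median change was -0.25 in EDL and -0.29 in EOM, and its median interaction was 0.07, which ranged from -0.16 to 0.30 over the alternative settings.

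**Figure D4:**
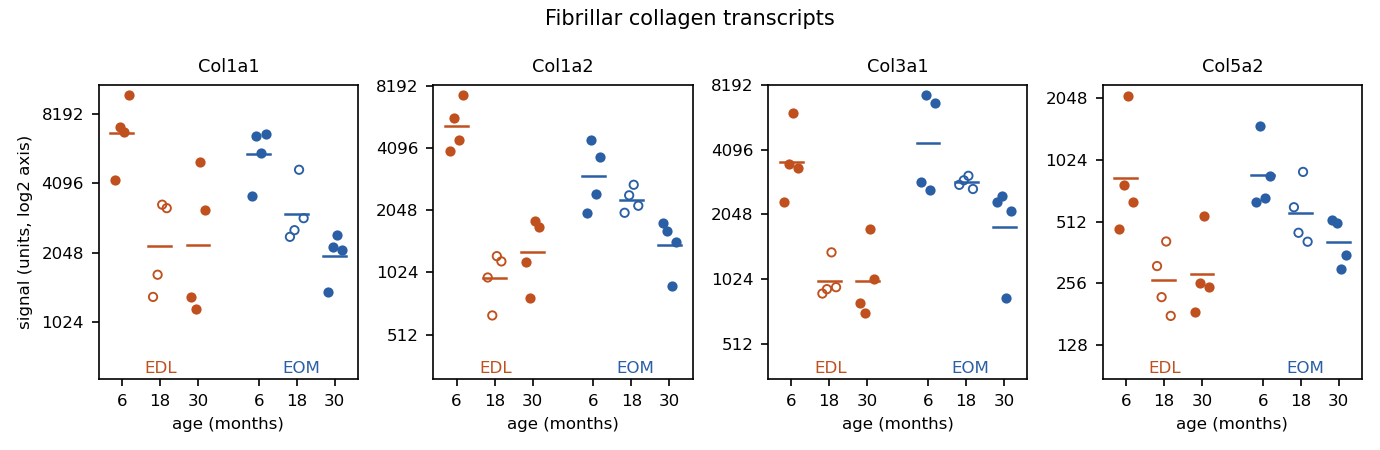
Signal on each array (arbitrary units, log2 axis) of Col1a1, Col1a2, Col3a1 and Col5a2 by age in months, for EDL (orange) and EOM (blue); open points are the 18-month arrays and bars are means of the log2 values over 4 arrays. EDL is low from 18 months on, and EOM is lowest at 30 months.

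The largest rises of the mean change without a call for the interaction were mostly carried by EDL. After Klk1 they were Krt18 (1.41), Mybph, a myosin-binding protein (1.37), Chrnd (1.32), Runx1 (1.15), Kcnn3, a calcium-activated potassium channel that appears in denervated muscle (1.15), Hook1, a microtubule linker (1.12), and Klk1c3. Kcnn3 rose by 2.09 in EDL (adjusted p = 0.00416) with an EOM change of 0.21, and Mybph by 2.11 with an EOM change of 0.63. Hook1 was the most even, at 1.39 in EDL and 0.85 in EOM (95% interval of the EOM change 0.16 to 1.54).

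The 2 calls in EOM were Atp2b2 and a probe set with no gene symbol, U39609_s_at, both named after their values were seen. Atp2b2, a calcium pump of the plasma membrane, read 29.4, 25.3, 10.7 and 20.4 units in EOM at 6 months, near the floor, and 92.1, 130.1, 121.8 and 92.9 at 30 months. At 18 months it was already at 80.3 to 98.9 units, above all 6-month EOM arrays, as on 1.96% of all probe sets tested. The EOM rise was 3.88-fold (adjusted p = 0.0288) and the interaction 2.00 (SE 0.45, adjusted p = 0.117), with EDL at 3.8 to 42.2 units. U39609_s_at rose in both muscles, by 3.50 in EDL and 3.08 in EOM (adjusted p = 0.0247). It was the only probe set called in each muscle, 1.08% of the EDL calls and 50% of the EOM calls. Its 6-month signals were 15.3 to 60.1 units in EDL and 19 to 174.5 in EOM, many of them near the floor of 21.5 to 34.5. Both probe sets passed the signal filter only through 30-month arrays, Atp2b2 only in EOM, so the sizes of their rises are uncertain. Neither EOM call held under all settings, and 0 probe sets were called without array 2 or 3 of EOM at 6 months or without array 1, 2 or 4 at 30 months.

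Of the 13 slow and cardiac sarcomere genes tested, 10 had a positive interaction, against 1658 of all 3354 genes tested. The median interaction was 0.92, against -0.01 over all genes. The list's median change was -0.90 in EDL and 0.02 in EOM. None of the 10 was called for the interaction, and the called member, Ankrd1, went the other way. Myl2, the slow regulatory light chain, was called lower in EDL (log2 -1.26, adjusted p = 0.0252) with an interaction of 1.25 (adjusted p = 0.53). Myh7, the slow myosin heavy chain, read 14895.6, 32182.8, 30415.3 and 7818.1 units in EDL at 6 months and 6540.3, 9589.3, 7595.0 and 11385.8 at 30. The EDL groups overlapped, the 6-month arrays differed widely among themselves, and the change of -1.10 was not called. Arrays 2 and 3 of EDL at 6 months were also the highest of their group for Myl2, Myl3, Myh6, Atp2a2, Tpm3 and Tnni1. Tnni1, for example, read 3376, 11925, 11800.8 and 1626.8 units on arrays 1 to 4. These members varied together across arrays, so their shared direction does not count as that many independent results. In EOM Myh7 stayed between 8046.9 and 10800.7 units. The probe sets of Myh7 (X15939_f_at) and Myh6 (rc_AA891522_f_at) carry the f that marks probes shared by a gene family. Other myosin heavy chains may therefore add to their signal.

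**Figure D5:**
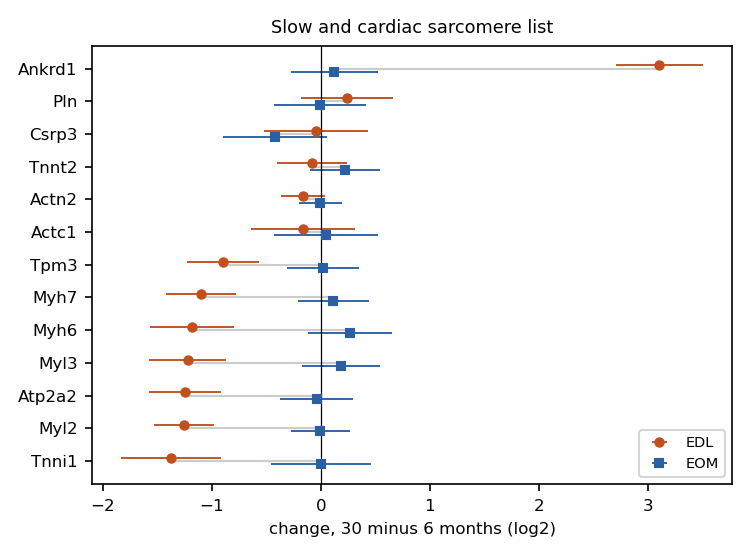
Log2 change from 6 to 30 months in EDL (orange circles) and EOM (blue squares), with the SE from the limma fit, for the 13 tested genes of the slow and cardiac sarcomere list. In EDL 6 genes lie below -1 and Ankrd1 above 3, while the EOM values lie between -0.42 and 0.27.

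The myosins that distinguish EOM did not show a called change in either muscle. Myh13 changed by 0.22 in EOM, Myh8, the perinatal myosin, by 0.00, and Myh3, the embryonic myosin, by 0.09. Myh4, the fast 2B myosin, changed by -0.09 in EDL and 0.12 in EOM, with an interaction of 0.21 (95% interval -0.26 to 0.69). Among growth regulators the 25 tested genes had a median interaction of -0.23, and the called one was Igf2. Fst, which encodes follistatin, an antagonist of myostatin, rose by 2.09 in EDL (adjusted p = 0.0252, limma) with an EOM change of 0.01 and an interaction of -2.08 (adjusted p = 0.549). Its dimmer probe set, rc_AA858520_g_at, gave an interaction of -1.56, also not called (adjusted p = 0.0556, limma). Mstn, myostatin itself, changed by -0.04 and 0.49.

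Metabolic and maintenance lists had 0 calls for the interaction and medians near 0. Over all genes 5 of 3354 were called, a share at which 0 calls in a list says little. Of all 3354 interactions 1658 were positive and 1696 negative. The median was 0.17 for 29 oxidative phosphorylation genes, of which 24 were positive, and 0.22 for 33 genes of fatty acid oxidation and the TCA cycle, of which 27 were positive. It was -0.18 for 25 ubiquitin and proteasome genes, 19 of them negative. Markers of macrophages and inflammation (20 genes, median 0.18), Schwann cells and nerve (16, 0.13), endothelium (10, 0.05), erythrocytes (5, 0.36), adipocytes (13, -0.04) and lymphocytes (5, 0.08) likewise had 0 calls, and their part in the results was not tested. B2m, the shared subunit of class I molecules, rose by 1.14 in EDL (adjusted p = 0.00361) with an EOM change of 0.20 and an interaction of -0.94 (adjusted p = 0.444). C3, a central complement component, was below the floor on every EDL array and had an EOM change of 0.32 that was not called.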

How the data were processed

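The authors deposited a table of linear intensities for Rat Genome U34 arrays. They obtained these with Affymetrix Microarray Suite 5.0, as stated by the design text and, for MAS5, per the submitters' processing notes. Dye names in the labels conflict with the biotin stain of the design text, and the table was treated as 1-colour. No genome build or further scaling is given in the sources used here. The 59 control probe sets among 8799 were left out. Of the 8740 others, the platform annotation gives 1 symbol for 7006, several for 308 and none for 1426, and only the first were named.

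Each value below its array's 25th percentile (21.5 to 34.5 units) was set to it, and log2 was taken. Fold changes of dim transcripts are therefore understated. Probe sets above their array's 40th percentile on at least 3 of the 4 arrays of a group were tested. These were 5606, among them the probe sets of 3354 named genes and others without a single symbol, and 3134 were not tested. A model of 4 group means over the 16 arrays (12 residual degrees of freedom) was fitted with limma 3.58.1 in R 4.3.3 (lmFit, eBayes with trend). P-values are two-sided and Benjamini-Hochberg adjusted. The probe set with the highest mean stands for its gene. Named were the genes called for the interaction with a group mean above 116 units, list members called for it, 25 listed genes, and the 8 largest shared rises and falls. The members, lists and rules were chosen with earlier results of these data known. The fit was tested on simulated data. The alternatives were other floors, filters, scalings and fits, array weights, leaving out each array, and the replicate sets. Promoters came from the RefSeq table for GRCr8, which held no entry used here for Ankrd1.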

Additional observations from a re-analysis of the deposited data

Results flagged for a closer look

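The change from 6 to 30 months differed between EDL and EOM, by the interaction test in limma, on 9 probe sets. The log2 interactions were -5.49 for AF030089UTR#1_at, -2.88 and -3.03 for the 2 probe sets of Gadd45a, -2.35 for Klk1 (M19647_f_at), -2.26 for S85184_at, -1.41 for Ctsl, -3.01 for Chrna1, -2.12 for Igf2 and -2.98 for Ankrd1.

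A single array stood apart from the other 3 of its group, by Dixon's criterion for 4 samples, in 13 of 156 groups examined over 39 probe sets (8.33%, where chance gives about 5%). Array 3 of EDL at 6 months was the high one for Chrna1 (1032.8 units), Ncam1 (476.5), Runx1 (825.4) and Krt18 (35, beside a floor of 34.5 on that array). Without this array 20 interactions were called in place of 9, all negative, among them Myog (-3.80), Ncam1 (-3.85), Runx1 (-2.03), Chrnd (-2.17) and Klk1 (M19647_i_at, -4.09). Array 2 of EDL at 6 months was high for S85184_at (240.1) and Atp2b2 (42.2). In EDL at 30 months array 2 was high for Klk1 (M19647_i_at, 6754.7) and array 3 low for Chrne (433.8). In EOM at 30 months array 1 was high for Chrna1 (2065.5) and Klk1c3 (433.8), array 3 for Ncam1 (274.4) and array 4 for Chrng (650.8). In EOM at 6 months array 1 was low for Tfrc (169.1).

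The 18-month arrays, which enter no test here, lay wholly above the 6-month arrays of the same muscle for 4 of the transcripts named. The lowest 18-month signal was 768.5 units for Chrnb1 and 120 for Hook1 in EDL, and 80.3 for Atp2b2 and 1084.8 for Chrnd in EOM. Over all probe sets tested this held on 1.28% in EDL and 1.96% in EOM. The reverse, all 18-month arrays below all 6-month arrays, held for Col1a1, Col1a2, Col3a1, Col5a2, Myh3 and C3 in EDL and for Tfrc and C3 in EOM, and for 1.25% and 2.12% of all probe sets.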

How the results depend on the processing

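The 9 interactions kept their sign in all 33 alternatives, and their number was 9 in the main setting, 14 with a common floor of 32 units, 15 with separate fits for each muscle, 15 with the set of replicates as a term, 0 within replicates 3 and 4, and 8 to 20 leaving out each array in turn, the highest without EDL_6m replicate 3. Median centring moved the median EDL change of all probe sets from 0.03 to -0.12 and the median interaction from -0.01 to 0.09, and gave 58 EDL calls (39 higher, 19 lower), 55 of them among the 93. The EDL calls were 30 in a separate fit, 2 within replicates 3 and 4, 40 without EDL_6m arrays 1 and 2, and 45 to 115 leaving out an array, 45 and 54 without arrays 1 and 2 of EDL at 30 months. The 2 EOM calls became 1 with a strict filter, 1 with a pseudocount, 0 with no floor, 0 in a separate fit, 0 within replicates 1 and 2, 1 that was lower within replicates 3 and 4, 0 to 2 leaving out an array (1 lower without array 1 at 6 months), and 26 under the design text's pairwise rule. The 50 calls of the mean change became 1 within replicates 3 and 4 and 30 to 67 leaving out an array, 31 without array 1 of EDL and 30 without array 2 of EOM at 30 months. Spearman's rho between the muscles was 0.093 to 0.24. The sets of replicates and the alternative without EDL_6m arrays 1 and 2 were chosen after seeing the data, and the cause of these differences was not tested.

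With replicate numbers as a block, 20 interactions, 140 EDL changes, 0 EOM changes and 83 mean changes were called. Same-numbered arrays of different groups deviated together in 22 of 24 pairs by over 0.1 (-0.005 to 0.532), and 12 of 16 arrays correlated best with their own number in every other group. This is a hint of a shared replicate effect, but not every pair passed 0.1 and the labels name no pairing, so the block was kept as an alternative. Under it the interactions of Klk1 (M19647_i_at, adjusted p = 0.00911) and Chrnb1 (0.0345) were called.

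Some interactions near 0, none of them called, changed sign. Myh13 was -0.44 within replicates 1 and 2. C3 was -0.10 with array weights and -0.16 within replicates 1 and 2. Col1a1 was -0.016 with quantile normalisation, -0.039 with array weights and -0.39 within replicates 3 and 4. Myh8 was 0.35 with no floor, 0.073 with a pseudocount, 0.09 with quantile normalisation, 0.06 with median centring and 0.079 with array weights. Leaving out an array in turn gave -0.14 to 0.72 for Myh13, -0.14 to 0.50 for C3, -0.17 to 0.54 for Col1a1 and -0.20 to 0.26 for Myh8. Signals near the floor of 21.5 to 34.5 units limit what can be seen of dim transcripts.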
